A study of Mus musculus with 4 samples.

Results

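The mouse mitochondrial genome carries 37 genes, which encode 13 proteins of the respiratory chain, 2 ribosomal RNAs and 22 transfer RNAs. All 37 were among the 54532 genes of the count table. They were taken by annotation, as every gene ID whose GENCODE symbol starts with mt-, a rule that uses no measured value. The choice of these genes was made with earlier results of these data known. They were measured by RNA-seq in samples labelled as gonadotropes, the pituitary cells that make the gonadotropins FSH and LH. The sample labels and protocols describe cells sorted from the pituitaries of male mice of mixed strain, 10 to 12 weeks old, whereas the design text of the series speaks of pituitaries. The values are given here for the sorted cells that the sample labels name, and the markers below show what else the libraries held. The control group (2 libraries) has the genotype label control. The other group (2 libraries) carries a conditional knockout (cKO) of GATA2, a zinc finger transcription factor of the pituitary, which the series title describes as specific to gonadotropes. The sources used here name neither the Cre driver nor the floxed allele, do not say which alleles the controls carry, and mention no pooling of animals. Nothing says that the replicates were different animals, so every p-value measures the spread between these libraries and no more.

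The mitochondrial genome is a circle inside the organelle that is transcribed from both strands into long precursors. The transfer RNAs lie between most of the messenger and ribosomal RNAs, and their excision releases the mature RNAs. The coding genes supply subunits of complexes I, III and IV, which pump protons, and of complex V, the ATP synthase. All other respiratory chain subunits, and the proteins that transcribe and process mitochondrial RNA, are encoded in the nucleus.

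In the 4 libraries, the mitochondrial coding genes took a larger share of the counts in both cKO libraries than in both controls. Every coding and ribosomal RNA gene was higher in both cKO libraries than in both controls, an order shown by 19.7% of all genes tested. No mitochondrial gene passed the test across all genes with all 4 libraries (edgeR's quasi-likelihood test with Benjamini-Hochberg adjustment, adjusted p under 0.05). Whether individual genes passed depended on the tool, on the filter on low counts and on which libraries entered the fit. For 7 of the 13 coding genes the reads match near-identical nuclear sequences, which are described before the values.

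Sequences of 15 annotated nuclear pseudogenes matched a mitochondrial coding gene at 90% identity or more. A block of 7 of them lies on the minus strand of chromosome 1 (chr1:24611535-24616197, mm10, 4663 bases) and follows the order of the mitochondrial genome from the end of mt-Co1 to the start of mt-Nd4. Gm28661 (copy of mt-Co2, 681 bases), Gm10925 (mt-Atp6, 678 bases), Gm28437 (mt-Co3, 783 bases), Gm10222 (mt-Nd4l, 294 bases) and Gm28439 (876 bases, 63.6% of mt-Nd4) had no mismatch. Gm28438, the copy of mt-Nd3, had the substitution T3C, and Gm29216, which covers the last 31.3% of mt-Co1, had A1066T. In both, the mitochondrial base stands before the position, which is counted from the gene's 5′ end. The stretches below, from the GENCODE M21 transcripts, show how little separates the copies from the genes. The capital marks the only mismatch between mt-Nd3 (chrM:9459-9486, plus strand) and Gm28438 (chr1:24613092-24613119, minus strand).
mt-Nd3: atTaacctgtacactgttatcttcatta
Gm28438: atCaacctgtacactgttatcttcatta
For mt-Co2 the 60 bases with the most differences from the chromosome 2 copy Gm13341 are shown, with those 6 bases in capitals (mt-Co2, chrM:7457-7516, plus strand; Gm28661, chr1:24615062-24615121, minus strand; Gm13341, chr2:22587471-22587530, minus strand). The chromosome 1 copy has the same letters as the mitochondrial gene throughout.
mt-Co2: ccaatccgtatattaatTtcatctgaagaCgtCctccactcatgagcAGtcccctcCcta
Gm28661: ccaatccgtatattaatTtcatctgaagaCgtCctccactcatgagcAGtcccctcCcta
Gm13341: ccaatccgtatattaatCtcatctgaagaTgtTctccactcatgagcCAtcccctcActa

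The counts followed these sequences. Gm28661 had 30938, 78704, 73708 and 98801 counts in control replicates 1 and 2 and cKO replicates 1 and 2 (the order kept throughout), against 30892, 78576, 73595 and 98646 for mt-Co2. The 2 genes had nearly equal counts in every library. Gm13341, with 95.9% identity, had 0.00814 to 0.0225 of the mt-Co2 counts. The ratio of copy to gene was 0.997 to 1.0004 for Gm10222, 0.987 to 0.994 for Gm28438, 1.002 to 1.011 for Gm28437 and 1.33 to 1.42 for Gm10925. For the partial copies, even coverage of the gene would give a ratio of 0.466 for mt-Nd4 if shared reads were divided equally and 0.636 if they were counted in full at both places. The observed ratio was 0.317 to 0.441. For mt-Co1 the same sums give 0.185 and 0.313, and the observed ratio was 0.159 to 0.192. For mt-Nd4 every observed ratio lay below both values, and for mt-Co1 the observed range included the value for equal division. How shared reads were counted was not tested.

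The counts were often not whole numbers. Of all values above 0 in the table, 13.4% were not whole numbers. mt-Nd1 and mt-Nd6 had whole counts in all 4 libraries and mt-Nd5 and mt-Cytb in 3 of 4, while mt-Co1, mt-Co2, mt-Co3, mt-Atp6, mt-Atp8 and mt-Nd4 had none. Every stretch of 100 bases in a gene was looked up in the annotated nuclear transcripts. It was found there for 99.9% of stretches in mt-Co3, 99.5% in mt-Co2 and mt-Atp6, 98.5% in mt-Nd4l, 97.6% in mt-Nd3, 60.8% in mt-Nd4, 30.8% in mt-Co1 and 3.19% in mt-Nd2. None was found for mt-Nd1, mt-Nd5, mt-Nd6, mt-Cytb, mt-Atp8 or either ribosomal RNA. Only transcripts were searched: 233 bases separate Gm10925 from Gm28661, against 230 between mt-Co2 and mt-Atp6, where most of mt-Atp8 lies. Levels of the genes with copies are therefore uncertain, and counts cannot tell at which place a shared read arose. Fold changes with each copy's counts added to its gene are given with the genes.

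Some genes also share bases with their mitochondrial neighbour, which matters for counting because no source used here gives the setting for overlapping genes. The end of mt-Atp8 and the start of mt-Atp6 share 43 bases (chrM:7912-7984, plus strand), and the end of mt-Nd4l and the start of mt-Nd4 share 7 (chrM:10147-10193, plus strand), with the shared bases in capitals.
mt-Atp8 end: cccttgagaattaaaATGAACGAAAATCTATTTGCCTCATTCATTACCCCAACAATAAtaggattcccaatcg
mt-Nd4l end: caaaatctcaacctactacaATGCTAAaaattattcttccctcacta

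The libraries held 10646909 and 21135301 counts (controls) and 15541553 and 18362182 counts (cKO). Control replicate 1 was the smallest and had the fewest genes with a count, 15187 against 17346 to 21573. Gata2 stood at 537 and 526 CPM (counts scaled to library size with TMM factors) in the controls against 221 and 214 with the knockout. Its log2 difference was -1.29 with SE 0.14 (edgeR adjusted p = 0.0473). The gonadotrope markers Cga, Lhb, Fshb, Gnrhr and Nr5a1 were present in all libraries and summed to 15064 and 13606 CPM in controls and 6660 and 7934 CPM in cKO. Other pituitary cell types were also represented: Pomc, the hormone gene of corticotropes and melanotropes, stood at 7161 and 9813 CPM in controls and 6032 and 7145 CPM in cKO, above Cga (6054 and 6137 against 3448 and 4185 CPM). Gh, the growth hormone gene of somatotropes, stood at 1124 and 2375 CPM against 2149 and 385 CPM.

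The 13 coding genes held 5.36% (replicate 1) and 6.04% (replicate 2) of all counts in the control group, and 7.58% and 8.74% in the cKO group. The groups did not overlap. The mean share was 5.70% ± 0.483 (SD, n = 2) in controls and 8.16% ± 0.820 (SD, n = 2) in cKO. This is a difference of 2.47 percentage points and a ratio of 1.43, with an exact two-sided permutation p = 0.333, the smallest that 2 against 2 libraries can give. Counting error was small beside this: the exact 95% interval of the lowest share ran from 5.34% to 5.37%. Reads are not independent molecules, so intervals cover counting error only. In bulk RNA, a change in the number of cells of a type and in RNA per cell cannot be told apart.

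The nuclear copies held 1.32% and 1.80% of counts in controls against 2.21% and 2.53% in cKO. Together, coding genes and copies held 6.67% and 7.84% in controls and 9.79% and 11.3% in cKO, a ratio of 1.45. The copies made up 19.7% and 23.0% of that sum in controls and 22.6% and 22.4% in cKO. The 4 genes without a near-identical copy and with mostly whole counts (mt-Nd1, mt-Nd5, mt-Nd6 and mt-Cytb) held 2.31% and 2.27% in controls and 3.02% and 3.46% in cKO, a ratio of 1.42. The ratio between groups was nearly the same with the copies and without them. Most copy counts rose and fell with those of their genes, so adding them could change the ratio little. For the 4 genes that lack a near-identical copy the ratio was also close.

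**Figure D1:**
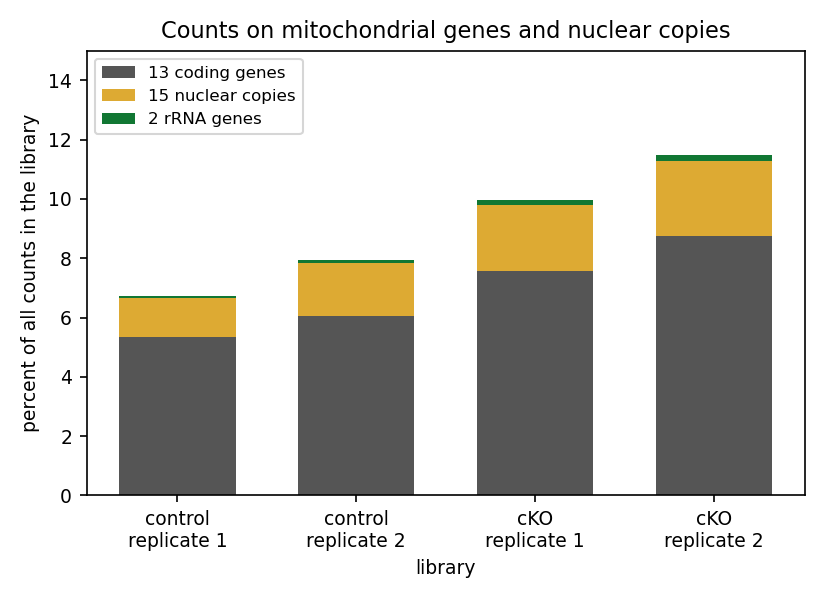
Percent of all counts (vertical axis) on the 13 coding genes, the 15 nuclear copies and the 2 ribosomal RNA genes, stacked for each of the 4 libraries (horizontal axis). The coding genes reach 5.36% and 6.04% in controls and 7.58% and 8.74% in cKO.

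All 13 coding genes were tested, and both cKO libraries stood above both controls for all 13. Over all 17349 genes tested, 19.7% showed that order. None of the 13 passed at an adjusted p under 0.05, against 0.0576% of all genes in either direction and 0.0115% higher in cKO. All 13 estimates were above 0, against 52.4% of all genes. At an unadjusted p under 0.05 all 13 were higher, against 3.15% of all genes. Their log2 fold changes ran from 0.43 to 0.92 with a median of 0.65, where the median over all genes was 0.03. These genes are cut from long precursors that they share with others of their strand, and are not replicates of each other.

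Complex I, NADH dehydrogenase, takes electrons from NADH and has 7 mitochondrially encoded subunits. Its genes held 2.06% and 2.31% of counts in controls and 2.98% and 3.40% in cKO. mt-Nd1 (ENSMUSG00000064341.1, chrM:2751-3707), a core subunit of the membrane arm, stood at 4207 and 4656 CPM in controls and at 6545 and 8132 CPM in cKO. Both cKO values lay well above the controls, which were close to each other. The log2 difference was 0.73 with SE 0.12 (edgeR adjusted p = 0.216). mt-Nd2, another membrane subunit, stood at 2798 and 3478 CPM against 4584 and 5572 CPM, a log2 difference of 0.69 with SE 0.14 (edgeR adjusted p = 0.360). mt-Nd5, the subunit at the far end of the membrane arm, stood at 7221 and 7784 CPM against 9593 and 10759 CPM, a log2 difference of 0.44 with SE 0.09 (edgeR adjusted p = 0.385). For both genes the gap between the groups was wider than the gap between the controls.

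mt-Nd6 (ENSMUSG00000064368.1, chrM:13552-14070) is the only coding gene on the minus strand. It stood at 742 and 961 CPM in controls and at 1323 and 1622 CPM in cKO, a log2 difference of 0.79 with SE 0.17 (edgeR adjusted p = 0.385). Its estimate had the sign of the 12 genes on the plus strand, and its last bases overlap mt-Nd5. No source used here says whether the counting used strand, so reads of antisense precursor over each gene cannot be told apart from its own.

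The other complex I genes have copies on chromosome 1. mt-Nd4 stood at 4053 and 5181 CPM in controls and at 6237 and 7252 CPM in cKO, a log2 difference of 0.55 with SE 0.14 (edgeR adjusted p = 0.504), and 0.59 with its copy added. mt-Nd4l, a small membrane subunit, stood at 680 and 841 CPM against 944 and 1101 CPM, a log2 difference of 0.43 with SE 0.15 (edgeR adjusted p = 0.654). mt-Nd3 stood at 209 and 432 CPM against 509 and 616 CPM, a log2 difference of 0.81 with SE 0.31 (edgeR adjusted p = 0.683). The controls of mt-Nd3 lay further apart than its second control and its cKO values.

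**Figure D2:**
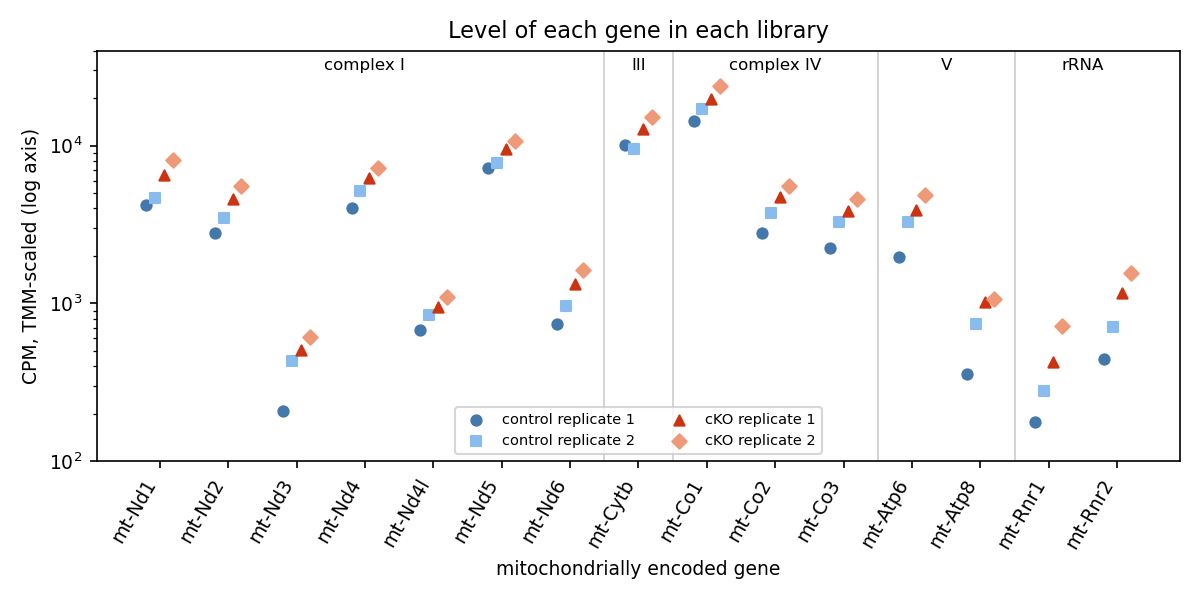
Level of each coding and ribosomal RNA gene in CPM (vertical log axis), with 1 point for each library and the genes grouped by complex (horizontal axis). In every gene both cKO points lie above both control points, and control replicate 1 is the lowest point except for mt-Cytb.

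Complex III carries electrons to cytochrome c, and mt-Cytb (ENSMUSG00000064370.1, chrM:14145-15288), cytochrome b, is its mitochondrially encoded subunit. It stood at 10170 and 9529 CPM in controls and at 12768 and 15150 CPM in cKO. This was the only coding gene for which control replicate 1 was the higher control. The log2 difference was 0.50 with SE 0.10 (edgeR adjusted p = 0.349).

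Complex IV, cytochrome c oxidase, passes electrons to oxygen, and its catalytic core is made of the products of mt-Co1, mt-Co2 and mt-Co3. mt-Co1 (ENSMUSG00000064351.1, chrM:5328-6872) stood at 14400 and 17075 CPM in controls and at 19775 and 23987 CPM in cKO, a log2 difference of 0.48 with SE 0.12 (edgeR adjusted p = 0.492). mt-Co2 stood at 2809 and 3755 CPM against 4733 and 5544 CPM, a log2 difference of 0.65 with SE 0.15 (edgeR adjusted p = 0.472). mt-Co3 stood at 2242 and 3288 CPM against 3869 and 4584 CPM, a log2 difference of 0.61 with SE 0.18 (edgeR adjusted p = 0.602). In mt-Co3 the second control lay closer to the first cKO library than to the other control.

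Complex V makes ATP from the proton gradient, and mt-Atp6 and mt-Atp8 encode membrane subunits of it. mt-Atp6 stood at 1958 and 3258 CPM in controls and at 3887 and 4833 CPM in cKO, a log2 difference of 0.74 with SE 0.23 (edgeR adjusted p = 0.608), and 0.76 with its copy added. mt-Atp8 (ENSMUSG00000064356.3, chrM:7766-7969), the shortest coding gene, stood at 357 and 743 CPM against 1013 and 1069 CPM, a log2 difference of 0.92 with SE 0.30 (edgeR adjusted p = 0.642). For both, control replicate 1 lay far below the other 3 libraries. With copies added to their genes the median over the 13 stayed at 0.65, and none passed at an adjusted p under 0.05 (0.0577% of all genes did).

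Other tests of the same counts called more of these genes. DESeq2 called 5.44% of all genes tested and 12 mitochondrial genes: 10 coding genes (all but mt-Co1, mt-Atp8 and mt-Nd3), mt-Rnr2 and mt-Te. limma-voom called 1.48% of all genes and 15 mitochondrial genes: the 13 coding genes and both ribosomal RNAs. The newer quasi-likelihood method of edgeR called 0.271% of all genes and 2 mitochondrial genes: mt-Nd1 (adjusted p = 0.0406) and mt-Rnr2 (adjusted p = 0.0363). Without a filter on low counts edgeR called 1.04% of all genes and 7 mitochondrial genes: mt-Nd3, mt-Nd6, mt-Atp6, mt-Atp8, mt-Te and both ribosomal RNAs. All these calls were higher in cKO. With genes kept at 1 CPM in 2 libraries (0.0182% of all genes called) or with robust dispersion (0.15%), no mitochondrial gene was called.

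Leaving out control replicate 1 gave a lower estimate for every coding and ribosomal RNA gene save mt-Cytb, and yet more of them passed. In that fit 0.32% of all genes and 8 mitochondrial genes passed, and the coding median was 0.41. mt-Nd1 had a log2 fold change of 0.65 (edgeR adjusted p = 0.0010), mt-Nd2 0.54 (0.0116), mt-Nd5 0.38 (0.0137), mt-Cytb 0.54 (0.0005), mt-Co1 0.35 (0.0326) and mt-Co2 0.44 (0.0336). mt-Nd3 at 0.37, mt-Atp6 at 0.41 and mt-Atp8 at 0.48 did not pass. With the copies added as well, 0.315% of all genes and 9 mitochondrial genes passed. Without control replicate 2, 3.5% of all genes and 16 mitochondrial genes passed, with a coding median of 0.86. The median over all genes was then 0.25. Without cKO replicate 1, 0.361% of all genes and 6 mitochondrial genes passed (mt-Nd1, mt-Nd6, mt-Atp6, mt-Atp8, mt-Rnr1 and mt-Rnr2), and without cKO replicate 2, 0.503% of all genes and 1 mitochondrial gene (mt-Rnr2). In these fits the lone library of a group is assumed to vary like those of the other group. mt-Rnr2 passed in all 4, and mt-Nd1 in all but the fit without cKO replicate 2.

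**Figure D3:**
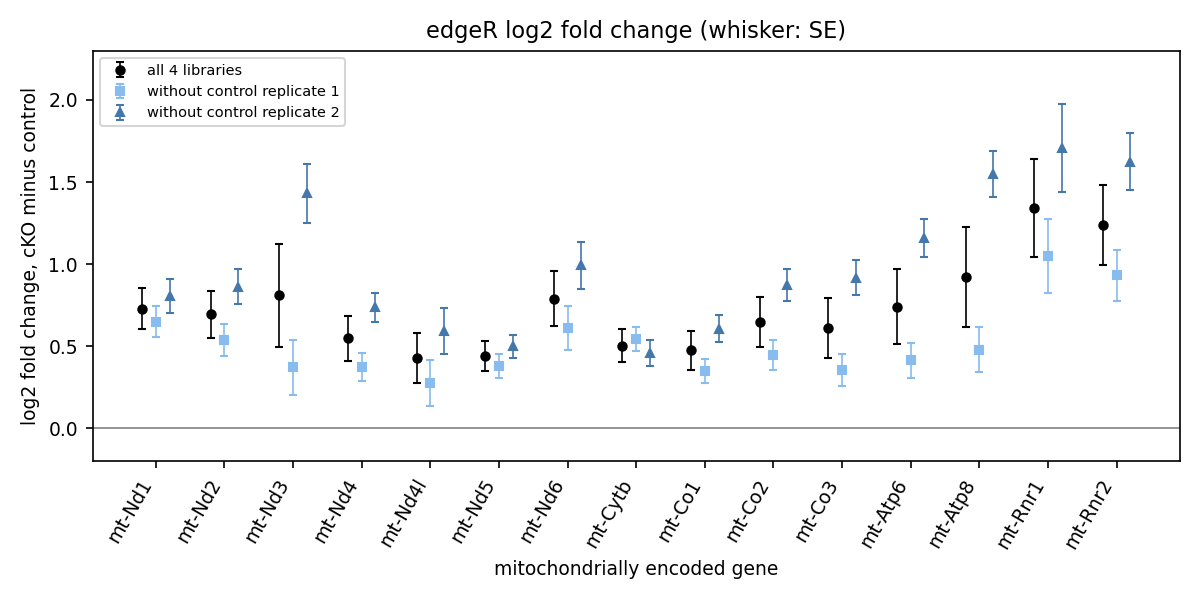
edgeR log2 fold change, cKO minus control, with its standard error (vertical axis) for each coding and ribosomal RNA gene (horizontal axis), with all 4 libraries and without either control. Without control replicate 1 the values of mt-Nd3, mt-Atp6 and mt-Atp8 are 0.37, 0.41 and 0.48, and mt-Cytb is at 0.54.

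The difference between the controls went with gene length. On the log2 scale, control replicate 2 stood above replicate 1 by 1.06 for mt-Atp8 and 1.05 for mt-Nd3, 2 of the 3 shortest coding genes, and by 0.35 at the median. The other of the 3, mt-Nd4l, stood below that median at 0.31, and mt-Cytb stood at -0.09. Across the 13 coding genes Spearman's rho of this difference with length was -0.70. Between the cKO libraries the differences ran from 0.08 to 0.31 and rho was 0.00. For the log2 fold change between groups rho was -0.59 with all libraries and -0.01 without control replicate 1. These are descriptions across 13 genes that share libraries and precursors. How far RNA length or fragment selection in that library bears on them was not tested.

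**Figure D4:**
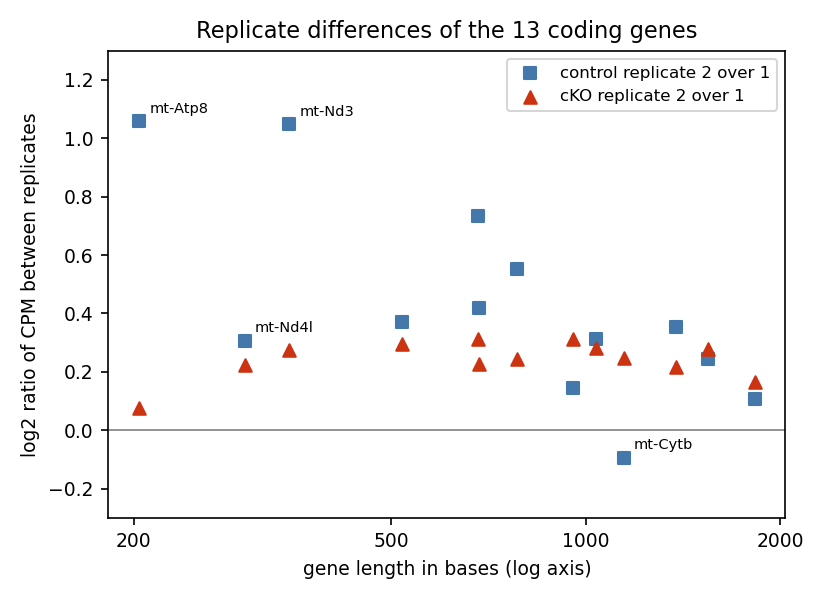
log2 ratio of CPM between the replicates of each group (vertical axis) against gene length in bases (horizontal log axis) for the 13 coding genes. The control ratios reach 1.06 for mt-Atp8 and 1.05 for mt-Nd3 and lie at -0.09 for mt-Cytb, while the cKO ratios lie between 0.08 and 0.31.

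Within the coding genes, the ratio of mean shares, cKO over control, ran from 0.916 for mt-Nd4l to 1.32 for mt-Atp8. As a share of all coding counts, mt-Nd1 stood at 8.11% and 7.63% in controls and 8.64% and 9.01% in cKO, mt-Nd2 at 5.40% and 5.70% against 6.05% and 6.18%, and mt-Nd6 at 1.43% and 1.58% against 1.75% and 1.80%. These 3 shares were higher in both cKO libraries. mt-Co1 stood at 27.8% and 28.0% against 26.1% and 26.6%, mt-Nd5 at 13.9% and 12.8% against 12.7% and 11.9%, and mt-Nd4l at 1.31% and 1.38% against 1.25% and 1.22%. These 3 were lower in both cKO libraries. By CPM, 19.7% of all genes tested were higher in both cKO libraries than in both controls and 19.3% lower. The shares are parts of a fixed sum, so a rise in some comes with a fall in others. The shares of the other 7 genes overlapped between groups. Among these were the genes with the largest ratios, mt-Atp8 (0.69% and 1.22% against 1.34% and 1.18%) and mt-Nd3 (0.40% and 0.71% against 0.67% and 0.68%, a ratio of 1.22).

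Levels per length differed widely among the coding genes, 12 of which lie on the same strand. In controls, mt-Co1 was highest with 10186 ± 1224 CPM per kilobase (SD, n = 2), followed by mt-Cytb with 8610 ± 396 and mt-Co2 with 4798 ± 978. Next came mt-Nd1 with 4630 ± 332, mt-Nd5 with 4113 ± 218, mt-Atp6 with 3829 ± 1350, mt-Co3 with 3527 ± 944 and mt-Nd4 with 3351 ± 579. mt-Nd2 (3023 ± 463), mt-Atp8 (2694 ± 1339), mt-Nd4l (2561 ± 383), mt-Nd6 (1640 ± 297) and mt-Nd3 (921 ± 453) were the lowest. Neighbours whose control values did not overlap were mt-Co1 above mt-Cytb, mt-Cytb above mt-Co2, mt-Nd1 above mt-Nd5, mt-Nd4l above mt-Nd6 and mt-Nd6 above mt-Nd3. All other neighbours overlapped.

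The copies reorder these levels. With their counts added, mt-Co2 stood at 9679 ± 2017 CPM per kilobase, mt-Atp6 at 9087 ± 3391 and mt-Co3 at 7079 ± 1917 (SD, n = 2). The control values of these 3 then overlapped those of mt-Cytb, which has no such copy, and mt-Co1 stood at 12057 ± 1215. mt-Nd3 remained among the lowest at 1833 ± 904. As deposited, the mean of mt-Atp6 lay below that of mt-Nd1, and with the copy it lay above.

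**Figure D5:**
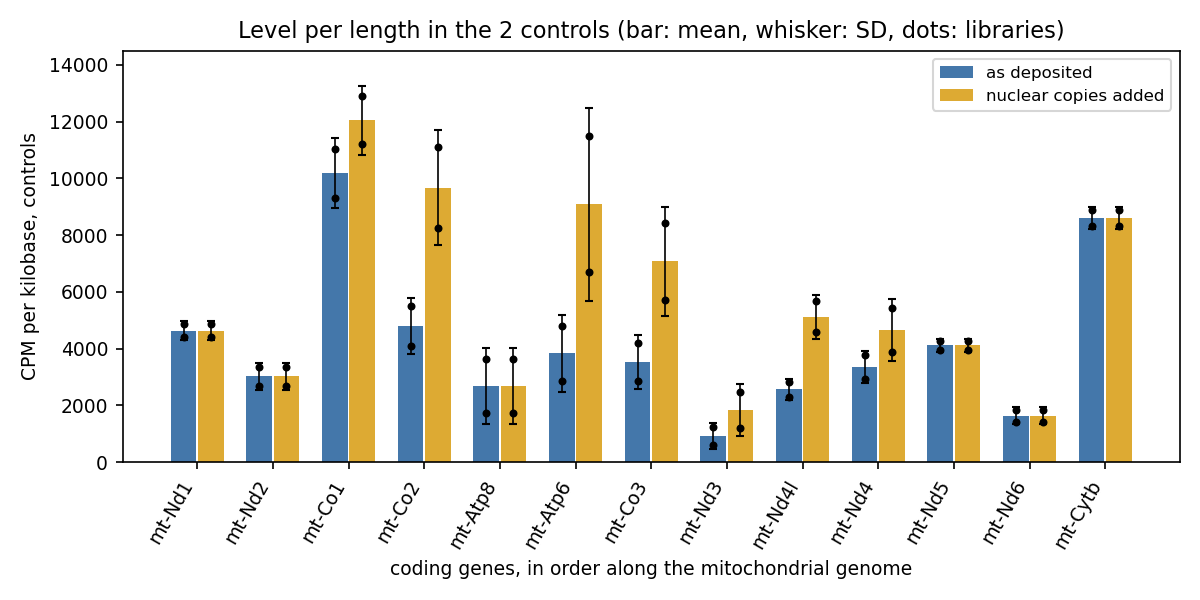
Mean CPM per kilobase in the 2 controls (bars, SD as whiskers, libraries as dots) for the 13 coding genes in genome order (horizontal axis), as deposited and with the counts of their nuclear copies added. mt-Co2 moves from 4798 to 9679 and mt-Atp6 from 3829 to 9087, while mt-Nd1, mt-Nd5, mt-Nd6 and mt-Cytb keep their levels.

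The ribosomal RNAs of the mitochondrial small subunit (mt-Rnr1, 12S, ENSMUSG00000064337.1, chrM:70-1024) and large subunit (mt-Rnr2, 16S, ENSMUSG00000064339.1, chrM:1094-2675) had larger fold changes than any coding gene. mt-Rnr1 stood at 176 and 276 CPM in controls and at 426 and 723 CPM in cKO, a log2 difference of 1.34 with SE 0.30 (edgeR adjusted p = 0.394). mt-Rnr2 stood at 443 and 709 CPM against 1159 and 1562 CPM, a log2 difference of 1.24 with SE 0.24 (edgeR adjusted p = 0.334). Both cKO libraries stood above both controls for each gene, an order shown by 19.7% of all genes tested. Without control replicate 1 the values were 1.05 (adjusted p = 0.0492) and 0.93 (adjusted p = 0.0041).

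Both ribosomal RNAs together held 0.0639% and 0.0976% of counts in controls and 0.159% and 0.221% in cKO. Per 100 coding counts there were 1.19 and 1.62 ribosomal RNA counts in controls and 2.09 and 2.53 in cKO, with an exact two-sided permutation p = 0.333, the smallest possible here. Per kilobase they stood at 237 (mt-Rnr1) and 364 (mt-Rnr2) CPM in controls and at 602 and 860 CPM in cKO, below every coding gene in the same group. The libraries were made from poly(A) RNA, so these levels are those of the RNA kept by that selection. How the share kept differed between libraries was not tested.

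Transfer RNAs were hardly counted. Of 22 genes, 19 had a count in at least 1 library, 7 had counts in all 4, and 10 passed the filter on low counts. The class held 0.00435%, 0.0107%, 0.0151% and 0.0140% of counts, in the order given above. mt-Tf, mt-Ti and mt-Td had no count, which allows a share of up to 2.82e-05% in control replicate 1, the smallest library, taking 3 counts as the limit. Transfer RNAs are shorter than most sequenced fragments and mature ones carry no poly(A) tail. A count on such a gene can also be a fragment of an uncut or neighbouring transcript.

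Most of these counts lay on mt-Tp and mt-Te, the genes for proline and glutamate transfer RNA, which lie on the minus strand, mt-Te between mt-Nd6 and mt-Cytb and mt-Tp beyond mt-Cytb and mt-Tt. Both are shown whole in their own direction (mt-Tp, chrM:15356-15422; mt-Te, chrM:14071-14139), as the only transfer RNAs with over 100 counts in every library.
mt-Tp: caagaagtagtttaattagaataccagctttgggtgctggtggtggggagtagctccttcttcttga
mt-Te: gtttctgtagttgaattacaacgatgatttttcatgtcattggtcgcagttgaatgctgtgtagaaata
mt-Tp had 316 and 993 counts in controls and 1087 and 1045 in cKO. mt-Te had 102 and 530.5 against 699 and 859. Together they held 90.2%, 67.7%, 76.2% and 74.0% of transfer RNA counts. As CPM, mt-Tp stood at 28.7 and 47.5 against 69.9 and 58.7, a log2 difference of 0.75 with SE 0.32 (edgeR adjusted p = 0.700). mt-Te stood at 9.28 and 25.4 against 44.9 and 48.3, a log2 difference of 1.42 with SE 0.49 (edgeR adjusted p = 0.646). Neither pair of groups overlapped. Both cKO libraries stood above both controls for 7 of the 10 transfer RNA genes tested, several with few counts. Over all genes tested, 19.7% showed that order.

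The 8 transfer RNA genes on the minus strand held 99.8%, 86.7%, 93.7% and 90.2% of the class, and the 14 on the plus strand had 1, 300, 147 and 252 counts in all. mt-Tn (asparagine) had 38 and 165 counts in controls and 172.5 and 142.5 in cKO. mt-Tc (cysteine) had 1 and 75.5 against 125 and 127.5, and mt-Ty (tyrosine) had 0 and 157.5 against 66 and 82.5. Control replicate 1 was the lowest library for all 3. mt-Tl1, a leucine transfer RNA next to mt-Rnr2, had 1 and 186 counts against 88 and 144. mt-Ta (alanine) had 4 and 17 against 34 and 21, mt-Ts1 (serine) 1.33 and 12.5 against 12.5 and 12, and mt-Tw (tryptophan) 0 and 38 against 0 and 26. mt-Tg (glycine) had none in either control and 29 and 31 in cKO. No transfer RNA gene passed at an adjusted p under 0.05 in the edgeR fit of all 4 libraries with the filter. mt-Te passed in the edgeR fits without the filter (adjusted p = 0.0292) and without control replicate 2 (adjusted p = 0.0145). In the fit of all libraries mt-Te and mt-Tp had an unadjusted p under 0.05, and DESeq2 called mt-Te. The other 9 counted genes (mt-Tv, mt-Tq, mt-Tm, mt-Tk, mt-Tr, mt-Th, mt-Ts2, mt-Tl2 and mt-Tt) had counts in 1 library each, at most 39.

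Values of the nuclear-encoded subunits that join these proteins lay on both sides of 0. Of 75 listed subunits 74 were tested and none passed with edgeR, limma-voom or the newer quasi-likelihood method. DESeq2, which called 5.44% of all genes, called Ndufs6 higher and Ndufs3 lower. At an unadjusted p under 0.05, 2 were higher and 4 lower, where 3.15% and 3.88% of all genes were. The log2 fold change was above 0 for 30 and below 0 for 44, with a median of -0.05 beside 0.65 for the mitochondrially encoded subunits. Both cKO libraries were above both controls for 10 of the 74 and below them for 16, where 19.7% and 19.3% of all genes showed those orders. The median was -0.15 for complex I (36 genes), -0.12 for complex II (4), 0.02 for complex III (9), 0.10 for complex IV (11) and -0.15 for complex V (14). Leaving out 1 control moved these medians: complex I stood at -0.02 without control replicate 1 and -0.29 without control replicate 2, complex V at 0.02 and -0.29, and all nuclear subunits at 0.00 and -0.14. Complex II stood at -0.05 and -0.08, complex III at -0.06 and 0.10, and complex IV at 0.10 and 0.18.

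Ndufs6, a zinc-binding complex I subunit, had 121 and 335 counts against 446 and 519, a log2 difference of 1.10 with SE 0.42 (edgeR adjusted p = 0.679). Ndufs3, a core complex I subunit, stood at 70.6 and 67.2 CPM against 48.3 and 41.8 CPM, a log2 difference of -0.61 with SE 0.24 (edgeR adjusted p = 0.691). Atp5b, the catalytic beta subunit of complex V, had a log2 fold change of 0.19, Cox5a 0.82, Uqcrb 0.84 and Sdhb -0.51. Summed over genes, the 13 mitochondrial coding genes stood at 9.72 and 12.0 times the nuclear subunits in controls and at 15.3 and 17.3 times in cKO. The nuclear sum itself was 5333 and 5062 CPM in controls and 4946 and 5213 CPM in cKO, so its groups overlapped.

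Nuclear genes for the expression of mitochondrial DNA had medians near or below 0, and none passed with edgeR. The 9 tested genes of mitochondrial transcription had a median log2 fold change of -0.21 (-0.49 without control replicate 1, -0.18 without control replicate 2). Polrmt, the mitochondrial RNA polymerase, stood at 0.49 (SE 0.33). Mterf1a, a factor that binds downstream of the ribosomal RNA genes, had 43 and 25 counts in controls and none in cKO. The 19 genes of mitochondrial RNA processing and stability had a median of 0.06 (-0.04 and 0.25 in those fits). Among them Tbrg4, which is needed for the stability of some mitochondrial messengers, stood at 18.4 and 30.5 CPM against 48.4 and 57.9 CPM, a log2 difference of 1.12 with SE 0.35 (edgeR adjusted p = 0.618). DESeq2 called it higher. Hsd17b10, a subunit of the enzyme that cuts the 5′ ends of mitochondrial transfer RNAs, stood at 1.44 (SE 0.60), and Elac2, which cuts their 3′ ends, at -0.63 (SE 0.37). At an unadjusted p under 0.05, Tbrg4 and Hsd17b10 were higher and no gene of these 2 lists was lower.

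The 12 genes of mitochondrial DNA replication had a median of -0.22 (-0.51 without control replicate 1, -0.03 without control replicate 2), with the helicase Twnk at 0.61. The 8 regulators of mitochondrial biogenesis had a median of -0.03 (0.02 and -0.09 in those fits), with Ppargc1b at -0.68. None of these had an unadjusted p under 0.05. For mitochondrial ribosomal proteins 77 genes were tested, with a median of -0.28 (-0.20 and -0.29 in those fits). Of these 22 were above 0 and 55 below, and both cKO libraries were below both controls for 22, where 19.3% of all genes showed that order. None passed with edgeR on all 4 libraries or with DESeq2, and 2 were lower at an unadjusted edgeR p under 0.05 (Mrpl54 at -1.22 and Mrps33 at -1.27). The 13 tested genes of the mitochondrial stress response had a median of -0.01 (0.14 without control replicate 1, 0.17 without control replicate 2). Chac1, a glutathione-degrading enzyme induced by stress, was the member with an unadjusted p under 0.05, at 1.13 (SE 0.37, edgeR adjusted p = 0.634). DESeq2 called it higher.

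RNAs of other kinds are set beside these values. Of 7 RNAs retained in the nucleus, 6 were above 0, with a median log2 fold change of 0.30, which was 0.16 without control replicate 1 and 0.81 without control replicate 2. The other, Xist, had 57 and 38 counts in controls and none in cKO, in libraries labelled as male, and DESeq2 called it lower. The 7 summed to 8019 and 7990 CPM in controls and to 9825 and 10459 CPM in cKO. Malat1 stood at 928 and 1134 CPM against 1723 and 1887 CPM, a log2 difference of 0.81 with SE 0.14 (edgeR adjusted p = 0.212). DESeq2 (5.44% of all genes called), limma-voom (1.48%) and the newer edgeR method (0.271%) called Malat1 higher, and limma-voom also called Meg3 higher. Both cKO libraries stood above both controls for 5 of the 7 and below them for 1. Over all genes, 19.7% and 19.3% showed those orders. The part of RNA quality in the mitochondrial values was not tested.

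Of 6 lists of pituitary cell type markers, those of lactotropes, stem cells and thyrotropes summed higher in both cKO libraries than in both controls. Those of gonadotropes and of corticotropes and melanotropes summed lower in both, and the sums of somatotrope markers overlapped. Markers of lactotropes, the prolactin cells, summed to 358 and 629 CPM in controls and to 1350 and 1365 CPM in cKO. All 4 (Prl, Drd2, Edil3 and Gal) were higher in both cKO libraries, an order shown by 19.7% of all genes, and none was at 0. None passed with edgeR on all 4 libraries (Prl, a log2 difference of 1.49 with SE 0.27, adjusted p = 0.248), and 3 had an unadjusted p under 0.05. DESeq2 called Prl, Edil3 and Gal, and limma-voom and the newer edgeR method called Prl. Stem cell markers summed to 72.1 and 76.5 CPM against 91.4 and 114 CPM. Of these 4 genes 2 were above 0, Sox2 at 0.64 and Sox9 at 1.34, and 2 below, Aldh1a2 at -0.83 and Cpxm2 at -2.46. Sox9, the most abundant, stood at 24.4 and 27.4 CPM against 58.0 and 73.0 CPM, with SE 0.28 (edgeR adjusted p = 0.385). DESeq2 called Sox9 higher and Cpxm2 lower, and limma-voom called Sox9.

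The remaining 4 pituitary lists are given here. Markers of gonadotropes were below 0 for 5 of 5, with Cga, the most abundant, at -0.68 (SE 0.11, edgeR adjusted p = 0.212). Fshb, the only one to pass with edgeR on all 4 libraries, fell by 2.01 on the log2 scale (edgeR adjusted p = 0.0381). DESeq2, limma-voom and the newer edgeR method also called Lhb and Cga lower. Gnrhr stood at -0.50 (SE 0.22) and Nr5a1 at -0.06 (SE 0.23). Both cKO libraries were below both controls for all of these markers but Nr5a1, an order shown by 19.3% of all genes. Corticotrope and melanotrope markers summed to 7306 and 10017 CPM against 6166 and 7279 CPM, with Pomc at -0.37 (SE 0.16) and Pax7 at 0 in cKO replicate 1. All 4 were below 0, and limma-voom called Pomc lower. Somatotrope markers summed to 1142 and 2407 CPM against 2192 and 461 CPM, with Gh at -0.47 (SE 0.69) and Ghrhr at 0 in cKO replicate 1. The other 2 of these 4 genes were above 0, Pou1f1 at 1.57 (SE 0.62) and Neurod4 at 1.76 (SE 0.69). Both were higher in both cKO libraries, an order shown by 19.7% of all genes. DESeq2 (5.44% of all genes called) called Ghrhr lower, and limma-voom (1.48%) called Gh lower. Thyrotrope markers summed to 77.2 and 68.7 CPM against 136 and 92.3 CPM, with Dio2 at 0.88 (SE 0.25), Tshb at -1.32 (SE 0.57) and Trhr at 0 in control replicate 1. DESeq2 called Dio2 higher. The part of cell makeup or the sort in the mitochondrial values was not tested.

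Markers of cells outside the endocrine pituitary were low. Endothelial markers summed to 17.6 and 30.5 CPM in controls and to 19.0 and 10.1 CPM in cKO, with Emcn at 0 in all 4 libraries. Erythroid markers summed to 37.0 and 8.80 CPM against 16.1 and 1.85 CPM, and macrophage and leukocyte markers to 12.8 and 10.3 CPM against 1.99 and 8.77 CPM. Fibroblast and pericyte markers summed to 0.0909 and 15.6 CPM against 18.6 and 12.7 CPM, with Col1a2 at 0 and 2.39 CPM against 10.5 and 5.51 CPM. They had a median log2 fold change of 1.58 over the 3 tested, which was 0.58 without control replicate 1 and 9.43 without control replicate 2. In the latter fit the only control left was the library in which they summed to 0.0909 CPM.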

How the data were processed

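RNA from sorted gonadotropes was selected for poly(A), made into libraries with the NuGEN Universal plus mRNA-seq kit and sequenced as paired ends, per the labels' protocols. The authors deposited estimated counts per gene, with 4.50% of values not whole. STAR 2.5.1b, featureCounts 1.5.0-p1 and mm10 are named in the submitters' processing notes. No source used here gives the annotation release or the settings for strand, overlaps and multiply mapped reads.

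Gene IDs were matched to GENCODE M21 without their version (54495 of 54532). Counts were rounded and tested with edgeR 4.0.16 (quasi-likelihood, TMM, filterByExpr with a minimum count of 10 and total of 15, group only) in R 4.3.3, with Benjamini-Hochberg adjustment over 17349 genes, and the scripts were tested on simulated data. Nuclear copies were found with blastn 2.17.0 among M21 transcripts (90% identity, at least 50% of the copy aligned). Shares are percents of the deposited counts, with 95% Clopper-Pearson intervals. DESeq2 1.42.0, limma-voom 3.58.1, other scalings and filters, a replicate block and leaving out each library were the alternatives.

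The members and gene lists were chosen with earlier results of these data known. Every mitochondrial gene with a count is named. From each pathway list up to 3 genes with the smallest p could be named, and from each cell type list the gene with the highest mean level. Further cell type genes were named after their values were seen, such as Fshb, Gnrhr, Nr5a1, Tshb, Col1a2 and genes at 0. So were Xist and the other lactotrope, somatotrope and stem cell genes.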

Additional observations from a re-analysis of the deposited data

How the results depend on the processing

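All 13 coding genes and both ribosomal RNAs were above 0 in every alternative run. The number of genes called with edgeR (10) was 943 with DESeq2, 253 without a filter, 256 with limma-voom, 47 with the newer quasi-likelihood method, 26 with robust dispersion and 3 where 1 CPM was required in 2 libraries, and ran from 66 to 681 with a library left out. The number of mitochondrial genes called (0) was 7 without a filter, 12 with DESeq2, 15 with limma-voom and 2 with the newer method, and ran from 1 to 16 with a library left out. The cause of these shifts was not tested. The median log2 fold change of the coding genes (0.65) ran from 0.41 to 0.86 with a library left out. With copies added and control replicate 1 left out, 65 genes and 9 mitochondrial genes were called and the coding median was 0.42. The difference in share (2.47 points) was 3.28 with nuclear copies added and 3.39 with ribosomal and transfer RNAs as well, and ran from 1.89 to 3.05 with a library left out. The runs that add only the nuclear copies, or leave them out of the scaling, were chosen after seeing the data. Across scalings the coding median stayed between 0.61 and 0.65. The values that changed sign were those of transfer RNAs with few counts: mt-Ty (0.22) was at -0.14 with the newer method and ran from -0.78 (without control replicate 1, also with copies added) to 9.04 with a library left out. mt-Tl1 (0.61) ran from -0.38 (without control replicate 1, also with copies added) to 6.12, and mt-Tw (-0.32) from -6.86 to 6.45, with 0.68 without cKO replicate 1.

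The replicate numbers do not pair the libraries by any label, and the deviations of libraries with the same number had a correlation of -0.01. With a replicate block, 7 genes and 0 mitochondrial genes were called, with a coding median of 0.66. With 2 libraries a group, the exact permutation test cannot go below p = 0.333, and transfer RNAs with under 100 counts in a library are not resolved at this depth.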
